A study of Mus musculus with 6 samples.

Results

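The molecular chaperones and folding enzymes of the cytosol, the endoplasmic reticulum (ER) and the mitochondria were examined in STHdh cells, an immortalized mouse line of striatal origin, after transfection with Foxp1. Members were the probes whose gene symbol on the array began as an Hspa, Hspb, Hspd1, Hspe1, Hsph1, Hsp90, Dnaja, Dnajb, Dnajc, Pdia, Cct, Bag or Hyou1 name. They carried 64 of the 18120 gene symbols on the array and numbered 87 of its 25697 probes. By family these were 30 HSP40, 11 HSP70, 8 CCT, 6 small HSP, 5 BAG and 2 mitochondrial chaperonin symbols, 1 PDI symbol, and Hspa5bp1. The last is now called Tmem132a and is not itself a chaperone. By compartment, 41 symbols were assigned to the cytosol, 9 to the ER, 8 to mitochondria and 6 to other places.

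Gene expression was measured on 6 single-colour Illumina beadchips, each with biotin-labelled total RNA from 1 sample of STHdh cells. Of these, 3 samples were Foxp1-transfected cells and 3 were controls. The control titles name pcDNA, an expression plasmid, while their genotype field reads wild-type, so whether the controls received an empty plasmid is not settled. The title of the series concerns Foxp1, a forkhead transcription factor of the striatum, as a repressor of immune signalling in the central nervous system. The promoter on the Foxp1 construct, the share of cells transfected, the time after transfection and the clone of the line are not stated. Nothing in the labels ties the replicates to separate cultures, and the spread behind each p-value is therefore that of these samples alone and could be technical.

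HSP70 proteins hold and release unfolded stretches of client proteins in a cycle driven by ATP. HSP40 (J-domain) proteins deliver clients and stimulate that ATP hydrolysis, while BAG proteins promote nucleotide release. Small HSPs bind unfolding proteins without ATP, the CCT ring encloses actin, tubulin and other clients, and protein disulfide isomerases (PDI) form and rearrange disulfide bonds in the ER. Cytosolic chaperone genes are classical targets of the heat shock factors, and ER chaperone genes are classical targets of the unfolded protein response.

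The 6 arrays detected 11789 to 12342 probes each. Median probe intensity was 36.6, 38.3 and 64.5 on Foxp1 arrays 1 to 3 and 29.2, 31.8 and 77.0 on control arrays 1 to 3, before quantile normalisation brought the arrays to a common distribution. Foxp1 itself had a normalised log2 level of 12.31 ± 0.29 in transfected cells and 9.69 ± 0.22 in controls (SD, n = 3 each), a rise of 2.62 ± 0.17 (SE; limma adjusted p = 0.0005). All 4 neural progenitor markers listed were detected in both groups, such as Nes at 10.74 in transfected cells and 10.57 in controls, and Sox2 at 9.23 in transfected cells and 9.34 in controls. Of the 7 striatal neuron markers on the array, Drd2 and Ppp1r1b passed the detection filter, both near the detection limit. Ppp1r1b was detected on 0 Foxp1 arrays and on 3 control arrays (adjusted p = 0.124). Of the 9 microglial, oligodendrocyte and endothelial markers on the array, 0 passed the filter. Of the 3 astrocyte markers on the array, 1 passed, Aldh1l1 (listed as Fthfd). It was detected on 2 Foxp1 arrays and 1 control array, near the detection limit (6.42 in transfected cells and 6.26 in controls).

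Of the 64 chaperone genes, 47 were measured, by 58 probes with a detection p below 0.05 on 3 or more arrays. The level of a gene was that of its brightest such probe. The other 17 genes did not pass the filter: Hspa1l, Hspa12b, Hspa14, Hspb2, Hspb3, Hspb7, Cct6b, Dnajb3, Dnajb5, Dnajb7, Dnajb8, Dnajc1, Dnajc5b, Dnajc6, Dnajc9, Dnajc14 and Dnajc15. Across all member probes 53 were detected on all 6 arrays and 26 on 0 arrays. There were 0 member probes detected on all arrays of 1 group and on none of the other. The highest member intensity, 24852.4 for Hspa8 on Foxp1 array 1, lay below the array maxima of 29596.7 to 30519.4.

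Differences among the chaperone transcripts were small. In the limma fit, 0 of the 47 genes passed an adjusted p of 0.05, against 2.73% of all 8789 genes (1.58% higher and 1.15% lower), and likewise 0 of the 58 probes, against 2.61% of all kept probes. At an unadjusted p under 0.05 there were 5 genes, 3 higher and 2 lower in Foxp1 cells, against 18.5% of all genes. With the replicate number as a block, 2 of the 47 passed (3.79% of all genes did): Hspa5, which was higher, and Dnajc12, which was lower. With array weights, 3 passed (8.57% of all genes did): Dnajb9, higher, and Dnajc12 and Hspb6, lower. The groups did not overlap in 9 of the 47 genes, 5 with Foxp1 above and 4 with Foxp1 below, a share of 19.1% against 25.8% of all genes.

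The log2 differences, Foxp1 minus control, ran from -0.46 to 0.68 with a median of 0.00, and 26 were positive and 21 negative. Their median absolute size was 0.11, against 0.14 over all genes, and their median SE was 0.11. The 95% interval of the difference lay within 1.5-fold in either direction for 39 of the 47 genes, against 77.4% of all genes, and within 2-fold for 46. The share within 1.5-fold lay near that of all genes, and the intervals reflect the spread of these samples alone. Hspa5 was the 1 gene with a fitted difference past 1.5-fold. In bulk RNA, fewer cells with a transcript and less of it per cell cannot be told apart.

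**Figure D1:**
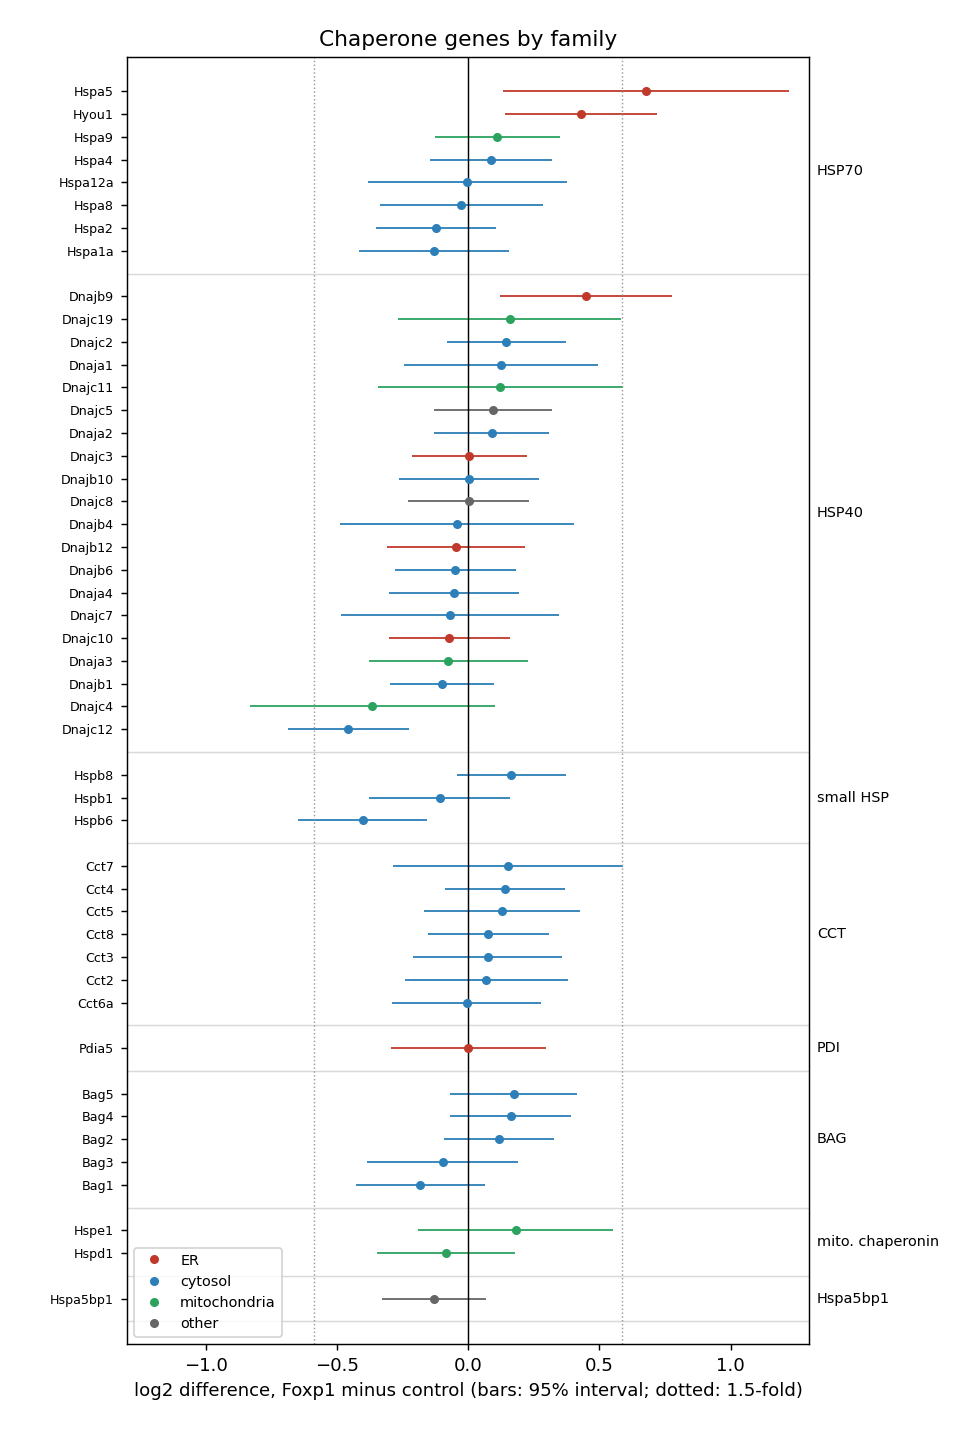
Log2 difference (Foxp1 minus control) of the 47 measured chaperone genes, 1 row per gene, grouped by family and coloured by compartment. Points are limma estimates and bars their 95% intervals from 3 arrays per group, with dotted lines at 1.5-fold. Hspa5 (0.68), Dnajb9 (0.45) and Hyou1 (0.43) stand to the right of the other members, and Dnajc12 (-0.46) and Hspb6 (-0.40) to the left.

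Among the 47 genes, the 3 with the largest positive differences all encode ER proteins. This ranking holds for the name rule only. Under older array names, Dnajc27 (0.51) and Dnajc17 (0.43), both assigned to other places than the ER, had differences of similar size. Hspa5 (BiP, probe ILMN_1255561) is the HSP70 of the ER lumen and binds both unfolded proteins and the stress sensors of the ER membrane. Its deposited intensity was 537.2, 695.4 and 1324.7 on Foxp1 arrays 1 to 3 and 269.6, 370.2 and 1016.3 on control arrays 1 to 3. After normalisation the log2 levels were 9.31, 9.74 and 10.005 on the Foxp1 arrays and 8.60, 9.01 and 9.41 on the control arrays. The groups overlapped, since Foxp1 array 1 lay below control array 3, but each Foxp1 array lay above the control array of the same number, by 0.71, 0.73 and 0.59. The difference was 0.68 ± 0.24 (SE), or 1.60-fold, with a 95% interval of 0.13 to 1.22 and a limma adjusted p of 0.187. With the replicate number as a block its SE was 0.09 and the limma adjusted p was 0.0207. The block was the only 1 of 16 other settings in which Hspa5 passed. Pairing by number rests on these data, since the labels do not explain the numbers.

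Hyou1 (GRP170, probe ILMN_2661367) is a large HSP70 relative of the ER that exchanges nucleotide on Hspa5. Its log2 levels were 8.86, 9.01 and 8.75 on the Foxp1 arrays and 8.50, 8.59 and 8.23 on the control arrays. Every Foxp1 array lay above every control array. The difference was 0.43 ± 0.13 (1.35-fold, 95% interval 0.14 to 0.72, limma adjusted p = 0.129, and 0.0562 with the block).

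Dnajb9 (ERdj4, probe ILMN_2829636) is an ER J-domain protein that works with Hspa5 and returns it to the sensor IRE1. Its log2 levels were 9.995, 10.09 and 10.20 on the Foxp1 arrays and 9.72, 9.36 and 9.86 on the control arrays. These groups did not overlap either, and control array 2 was the lowest of the 6. The difference was 0.45 ± 0.14 (1.36-fold, 95% interval 0.12 to 0.78, limma adjusted p = 0.152, and 0.0943 with the block). With array weights it was 0.56 and passed (limma adjusted p = 0.0321).

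The other ER members lay close to 0. Dnajc3 (p58IPK), an ER J-domain protein first described as an inhibitor of the kinase PKR, had log2 levels of 9.30, 9.09 and 9.23 on the Foxp1 arrays and 9.17, 9.23 and 9.21 on the control arrays, and differed by 0.00 ± 0.10 (95% interval -0.22 to 0.22). Dnajc10 (ERdj5), a J-domain reductase that helps misfolded proteins leave the ER, differed by -0.07 ± 0.10. Dnajb12, anchored in the ER membrane with its J domain in the cytosol, differed by -0.05 ± 0.11. Each of these intervals lay within 1.5-fold, so a shift of the size seen for Hspa5 was outside the interval for all 3. The 2 remaining ER symbols, Dnajc1 and Dnajc14, were not measured.

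The only Pdia symbol matched was Pdia5, a disulfide isomerase, with a difference of 0.00 ± 0.13 (95% interval -0.29 to 0.30). On this array most PDI genes carry older names that the rule does not reach. Under those names Pdia3 (listed as Grp58), the isomerase that folds glycoproteins with calnexin and calreticulin, differed by -0.13 ± 0.09, with every Foxp1 array below every control array (13.24, 13.18 and 13.24 against 13.39, 13.34 and 13.34). Pdia4 (listed as Cai) differed by -0.17 ± 0.12 and Pdia6 (listed as Txndc7) by 0.03 ± 0.10. Further Pdia5 probes, listed as Pdir and brighter than the one matched, differed by -0.09 ± 0.10 and -0.10 ± 0.19. The adjusted p of these probes lay at 0.452 or above, and none of their 95% intervals reached the 0.68 of Hspa5.

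**Figure D2:**
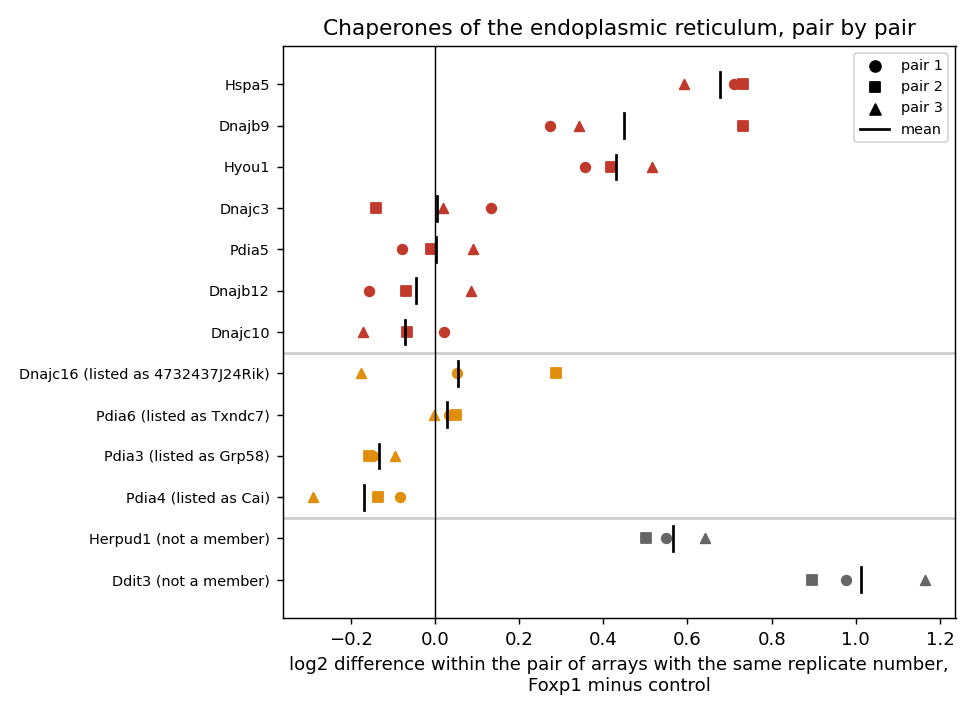
Log2 difference (Foxp1 minus control) within each pair of arrays with the same replicate number, for the measured ER chaperones by rule (red), ER genes under older array names (orange) and 2 unfolded protein response genes that are not members (grey); black ticks are means over the 3 pairs. Hspa5, Dnajb9 and Hyou1 are positive in all 3 pairs, while Dnajc3, Pdia5, Dnajb12 and Dnajc10 scatter around 0.

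The promoters of these ER genes are shown because the ER stress response element, ERSE, is the classical binding sequence of the factors of the unfolded protein response. It was searched as CCAAT and CCACG with 9 bases between them, on both strands of the 250 bases before each start in RefSeq promoters of mouse build GRCm38.p6. It occurs in 0.113% of the 32851 promoters. Among the 52 member genes with an entry, which have 71 promoters, it occurs in 2, Hspa5 (bases -65 to -47) and Dnajc3 (bases -105 to -87). Hyou1 and Hspa8 have no entry and were not searched. Capitals mark the match, and each run is written 5′ to 3′ on the strand of the gene. The Hspa5 promoter is chr2:34771840-34772089 on the plus strand, that of Dnajc3 is chr14:118937682-118937931 on the plus strand, and that of Dnajb9, which has 0 matches, is chr12:44210069-44210318 on the minus strand.
Hspa5: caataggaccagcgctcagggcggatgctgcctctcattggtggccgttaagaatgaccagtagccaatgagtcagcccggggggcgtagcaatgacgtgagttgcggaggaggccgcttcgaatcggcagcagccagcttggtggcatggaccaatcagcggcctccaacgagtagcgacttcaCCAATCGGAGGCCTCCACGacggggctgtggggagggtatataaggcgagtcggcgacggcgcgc
Dnajc3: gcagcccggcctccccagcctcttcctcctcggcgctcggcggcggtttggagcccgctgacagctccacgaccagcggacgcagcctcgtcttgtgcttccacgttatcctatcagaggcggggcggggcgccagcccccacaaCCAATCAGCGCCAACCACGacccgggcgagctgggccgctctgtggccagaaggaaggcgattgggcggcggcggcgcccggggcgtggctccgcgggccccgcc
Dnajb9: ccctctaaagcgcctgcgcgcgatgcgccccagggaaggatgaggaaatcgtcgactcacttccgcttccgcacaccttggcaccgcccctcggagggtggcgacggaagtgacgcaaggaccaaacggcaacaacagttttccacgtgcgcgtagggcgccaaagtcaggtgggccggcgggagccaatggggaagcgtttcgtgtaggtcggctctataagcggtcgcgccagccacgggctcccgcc
Beside these sequences stand differences of 0.68 for Hspa5, 0.00 for Dnajc3 and 0.45 for Dnajb9, so among these 3 a match went with both the largest and the smallest difference. A match describes the letters only and was not tested as a binding site. The related ERSE-II, ATTGG and CCACG with 1 base between them, occurs in 0.0304% of promoters and in 0 members. Outside the name rule, ERSE-II occurs before Herpud1 (bases -52 to -42) and the ERSE before Pdia6 (bases -98 to -80) and, at 2 places, before Hsp90b1.

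In the cytosol the HSP70 family showed no comparable value. Hspa8 (HSC70), the constitutive HSP70 of the cytosol, had log2 levels of 14.56, 14.40 and 14.14 on the Foxp1 arrays and 14.50, 14.46 and 14.23 on the control arrays. The control levels lay inside the range of the Foxp1 levels, and the difference was -0.02 ± 0.13 (95% interval -0.33 to 0.28), with -0.04 at a second probe. Hspa1a, the classical heat-inducible HSP70, had levels of 8.26, 8.003 and 8.38 on the Foxp1 arrays and 8.27, 8.29 and 8.48 on the control arrays, a difference of -0.13 ± 0.12 (95% interval -0.42 to 0.16). Hspa2, which is best known from the testis, differed by -0.12 ± 0.10, and Hspa4, a nucleotide exchange factor of the HSP110 group, by 0.09 ± 0.10. Together with Hspa12a (-0.00 ± 0.16), the 5 cytosolic HSP70 genes ran from -0.13 to 0.09 with a median of -0.02, while the ER pair Hspa5 and Hyou1 had a median of 0.55. All 5 of the cytosolic intervals lay within 1.5-fold, and neither ER interval did. Outside the name rule, the cytosolic HSP70 relatives Hsph1 (listed as Hsp105) and Hspa4l (listed as Osp94) differed by 0.10 ± 0.10 and -0.00 ± 0.13.

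As whole compartments, ER and cytosol had the same median to the second decimal. The 7 measured ER genes had a median difference of 0.00, with 5 positive, and the 30 cytosolic genes had a median of 0.00, with 15 positive and 15 negative. The 7 mitochondrial genes had a median of 0.11, or 0.02 over 8 genes when older array names were included, against -0.00 for all genes. An unadjusted p under 0.05 occurred in 3 of the 7 ER genes and in 2 of the 30 cytosolic genes, against 18.5% of all genes. The interval lay within 1.5-fold for 4 of the 7 ER genes and for 27 of the 30 cytosolic genes. No test of the compartments against each other was made, because the genes are not replicates.

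The HSP40 family was the most numerous, with 20 measured genes, 10 positive and 10 negative, and a median difference of -0.02. Its extremes were Dnajb9, above, and Dnajc12 (probe ILMN_1229993), a cytosolic J-domain protein that associates with the aromatic amino acid hydroxylases. Dnajc12 had log2 levels of 9.06, 8.82 and 8.93 on the Foxp1 arrays and 9.43, 9.31 and 9.42 on the control arrays. Every Foxp1 array was below every control array. The difference was -0.46 ± 0.10 (1.37-fold lower, 95% interval -0.69 to -0.22), and the limma adjusted p of 0.0594 was the lowest of any member, just outside the threshold. It passed in 5 of 16 other settings, among them the block (0.0482) and array weights (0.0387), and did not pass when any 1 array was left out.

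Dnajc4, a mitochondrial J-domain protein, differed by -0.36 ± 0.20 (adjusted p = 0.392) with wide and overlapping groups. Dnajb1, the main heat-inducible J-domain partner of the cytosolic HSP70, had levels of 12.31, 12.21 and 12.25 on the Foxp1 arrays and 12.35, 12.38 and 12.34 on the control arrays. Its groups did not overlap, yet the difference was small, -0.10 ± 0.09 (95% interval -0.30 to 0.10). Dnajc2, a ribosome-associated J-domain protein, differed by 0.15 ± 0.10, Dnaja3, which acts in mitochondria, by -0.08 ± 0.13, and Dnajc19, of the mitochondrial import motor, by 0.16 ± 0.18. The 10 cytosolic HSP40 genes had a median of -0.05, the 4 ER genes -0.02 and the 4 mitochondrial genes 0.02.

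**Figure D3:**
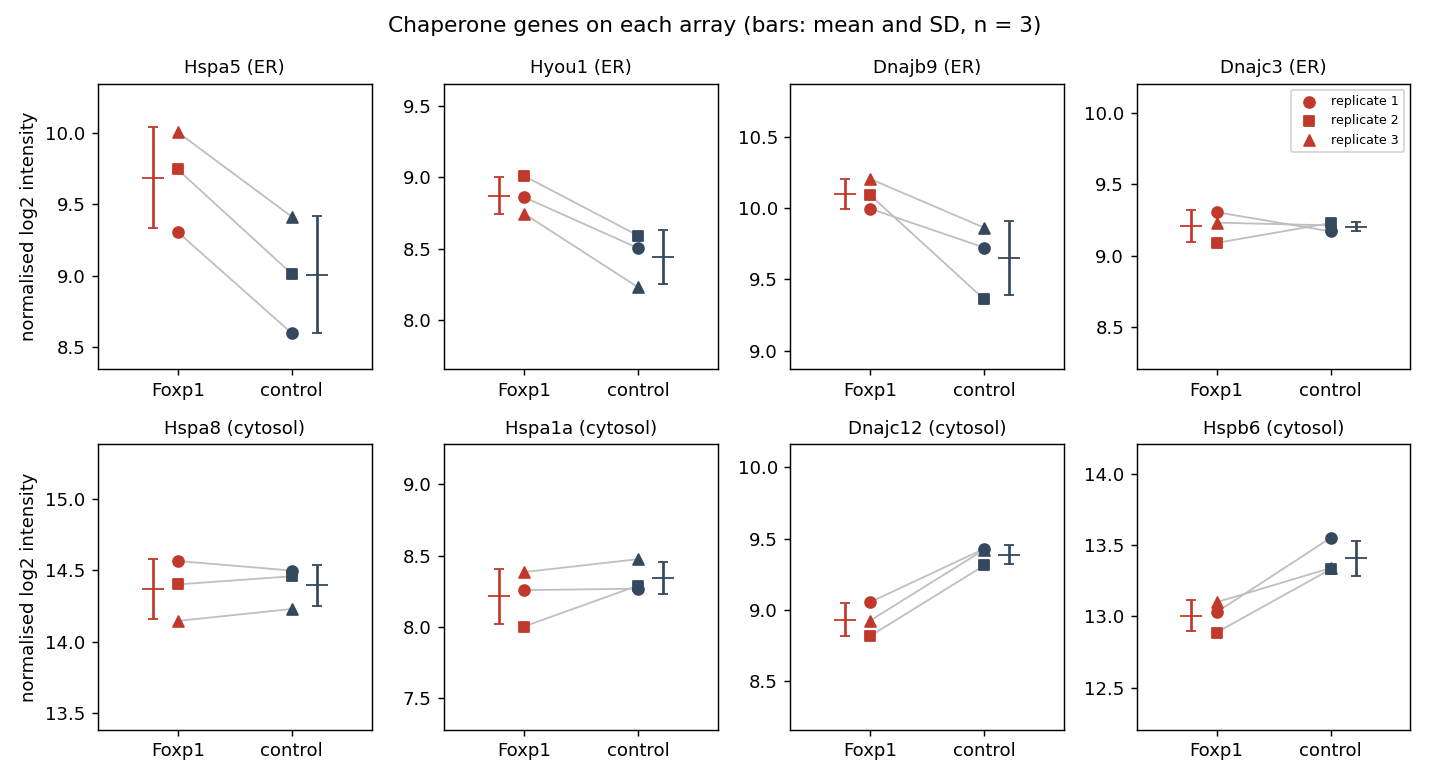
Normalised log2 intensity of 4 ER chaperones (upper row) and 4 cytosolic chaperones (lower row) on each array, Foxp1 left and control right; crosses with bars are the group mean and SD (n = 3) and grey lines join arrays with the same replicate number. Each Foxp1 array of Hspa5, Hyou1 and Dnajb9 lies above the control array of its number, Dnajc12 and Hspb6 run the other way, and the axes of all panels span the same number of log2 units.

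Small HSPs gave values in both directions. Hspb6 (HSP20, probe ILMN_2805339), known from muscle as a partner of the contractile machinery, had deposited intensities of 7801.8, 6514.2 and 11093.5 on the Foxp1 arrays and 8966.9, 8212.5 and 14208.6 on the control arrays. Its normalised log2 levels were 13.03, 12.89 and 13.10 on the Foxp1 arrays and 13.55, 13.33 and 13.34 on the control arrays, with no overlap. The difference was -0.40 ± 0.11 (1.32-fold lower, 95% interval -0.65 to -0.15, limma adjusted p = 0.106, 0.0825 with the block and 0.0406 with array weights). Hspb8 (HSP22), which works with Bag3 in the selective autophagy of misfolded proteins, had levels of 11.47, 11.40 and 11.39 on the Foxp1 arrays and 11.33, 11.25 and 11.19 on the control arrays. Its groups did not overlap, and the difference was 0.17 ± 0.09 (adjusted p = 0.379). Hspb1 (HSP27), the widely expressed heat-inducible small HSP, differed by -0.11 ± 0.12 with overlapping groups.

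Among the BAG cochaperones, Bag5 (0.17 ± 0.10), Bag4 (0.16 ± 0.10) and Bag2 (0.12 ± 0.09) were positive. Bag1 (-0.18 ± 0.11), which links HSP70 to the proteasome, and Bag3 (-0.10 ± 0.12), which links it to autophagy, were negative. The groups did not overlap for Bag2 and Bag5, a share of 40.0% against 25.8% of all genes. All 5 intervals lay within 1.5-fold, against 77.4% of all genes. Bag6, listed as Bat3 and so outside the name rule, differed by -0.17 ± 0.11, with every Foxp1 array below every control array. With Bag6 the family had 3 positive and 3 negative differences, and its median was 0.01 instead of 0.12.

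Subunits of the CCT ring had small differences, mostly positive under the name rule. The 7 measured genes ran from -0.00 to 0.15 with a median of 0.08, and 6 were positive: Cct7 (0.15 ± 0.19), Cct4 (0.14 ± 0.10), Cct5 (0.13 ± 0.13), Cct8 (0.08 ± 0.10), Cct3 (0.07 ± 0.12) and Cct2 (0.07 ± 0.13). Cct6a differed by -0.00 ± 0.12. The groups overlapped in all 7, and a second Cct3 probe gave -0.13 ± 0.09. The first subunit of the ring, listed as Tcp1 and therefore outside the name rule, differed by -0.12 ± 0.10. Every one of these differences was within 2 SE of 0.

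In mitochondria, Hspa9 (mortalin), the HSP70 of the matrix, differed by 0.11 ± 0.10 at its brighter probe and by 0.22 ± 0.10 at a second one (adjusted p = 0.613 and 0.271). Of the chaperonin pair, Hspe1 (HSP10) differed by 0.18 ± 0.16 and Hspd1 (HSP60) by -0.08 ± 0.11. Hspe1 had levels between 12.99 and 13.04 on the Foxp1 arrays and of 12.46, 12.92 and 13.11 on the control arrays, so that the spread lay in the controls. The promoter of Hspe1, which Hspd1 shares head to head, is shown as the example of a heat shock element, the binding sequence of the heat shock factors. It lies at chr1:55087898-55088147 on the plus strand, and capitals mark 2 overlapping matches to 3 alternating units, GAA, TTC and GAA with 2 bases between each, on either strand.
Hspe1: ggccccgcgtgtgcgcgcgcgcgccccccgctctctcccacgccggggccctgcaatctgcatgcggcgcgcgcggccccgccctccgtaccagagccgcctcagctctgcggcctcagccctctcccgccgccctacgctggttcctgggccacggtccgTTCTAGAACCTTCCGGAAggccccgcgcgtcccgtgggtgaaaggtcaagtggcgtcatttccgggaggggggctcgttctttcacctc
These letters occur in 0.466% of the 32851 promoters and in the member genes Hspe1, Hspd1 and Dnajb6, with differences of 0.18, -0.08 and -0.05. The shorter form GAANNTTC, which every 3-unit match contains, occurs in 6.69% of promoters and in 10 member genes, Hspa1a and Hspb6 among them. Of these genes, Hspe1 (0.18), Dnaja1 (0.13) and Cct2 (0.07) had positive differences. Negative ones were those of Hspb6 (-0.40), Hspa1a (-0.13), Hspb1 (-0.11), Hspd1 (-0.08), Dnaja4 (-0.05) and Dnajb6 (-0.05, with 0.19 at a second probe). Hspb3 was not measured. A link between either form and the differences was not tested.

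HSP90 has no member by the name rule, since the array lists its genes under older symbols. Hsp90aa1 (listed as Hspca), the stress-inducible cytosolic HSP90, had log2 levels of 10.05, 10.33 and 10.65 on the Foxp1 arrays and 9.71, 10.22 and 10.44 on the control arrays, a difference of 0.22 ± 0.21 (adjusted p = 0.641). Hsp90ab1 (listed as Hspcb), the constitutive form, differed by -0.16 ± 0.12 at its brightest probe and by -0.10 and 0.07 at the other two. A probe listed as Tra1, a synonym that RefSeq gives to both Hsp90b1, the ER HSP90, and Plscr1, differed by -0.01 ± 0.15. In all, 13 more genes were measured under older names, and 0 of the 60 genes so reached passed the threshold, with 7 at an unadjusted p under 0.05, against 18.5% of all genes. Among the 13 genes under older names the largest differences were those of J-domain genes, Dnajc27 (listed as C330021A05Rik, 0.51 ± 0.14, adjusted p = 0.108) and Dnajc17 (listed as 1700025B16Rik, 0.43 ± 0.12, adjusted p = 0.111), both without overlap.

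Where a gene had more than 1 kept probe by rule, the probes could be set against each other. Of 11 such genes, 8 had the same sign at both probes. The exceptions were Cct3, Dnajb6 (-0.05 and 0.19) and Dnajc10 (-0.07 and 0.12), all with intervals that include 0. Hspa5, Hyou1, Dnajc12, Hspb6 and Dnajb9 each rested on 1 kept probe.

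Genes that regulate or assist these chaperones, 74 listed and 56 measured, contained 2 that rose and 0 that fell, against 1.58% of all genes higher and 1.15% lower. That count lies near the background, and no more is read from it. Both are known as genes of the unfolded protein response, though no test was made of that response. Ddit3 (CHOP), its pro-apoptotic transcription factor, had log2 levels of 10.66, 10.68 and 10.58 on the Foxp1 arrays and 9.69, 9.79 and 9.41 on the control arrays, and rose by 1.01 ± 0.12 (2.02-fold, limma adjusted p = 0.00594). A second Ddit3 probe rose by 1.14 ± 0.12. Herpud1, an ER membrane protein of the degradation pathway, had levels of 13.33, 13.33 and 13.48 on the Foxp1 arrays and 12.79, 12.83 and 12.84 on the control arrays. It rose by 0.56 ± 0.09 (1.48-fold, limma adjusted p = 0.0225), and its second probe differed by 0.49 ± 0.11 (adjusted p = 0.0554).

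With the block, Ppp1r15a (GADD34, listed as Myd116), which reverses the translational arrest of ER stress, also passed (0.65 ± 0.14, limma adjusted p = 0.0607 without the block and 0.0474 with it). So did Hspbap1, a protein that binds small HSPs (0.44 ± 0.11, 0.0913 without the block and 0.0489 with it). Among the sensors and their transcription factors, Xbp1 differed by 0.17 ± 0.12, Atf4 by 0.14 ± 0.09 and Eif2ak3 (PERK) by 0.08 ± 0.14, while Creb3l2, a transcription factor anchored in the ER membrane, differed by -0.32 ± 0.12 (adjusted p = 0.224) with every Foxp1 array below every control array. The 8 measured genes of this list had 5 positive and 3 negative differences and a median of 0.11. An unadjusted p under 0.05 in the limma fit occurred in 3 of the 8, against 18.5% of all genes.

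Other folding enzymes, lectins and degradation factors of the ER had mostly negative differences. Of 21 measured, 1 (Herpud1) rose, against 1.58% of all genes, and 0 fell, against 1.15%. Differences were positive in 7 and negative in 14, with a median of -0.11. An unadjusted p under 0.05 in the limma fit occurred in 7 of the 21, Herpud1 among them, against 18.5% of all genes. Foxp1 lay below control without overlap in 9 of the 21, against 14.1% of all genes, and above in 1, against 11.7%. Examples are Fkbp14, a prolyl isomerase (-0.35 ± 0.10, adjusted p = 0.127), Edem2 (listed as 9530090G24Rik, -0.43 ± 0.13, adjusted p = 0.134), which trims the sugars of misfolded glycoproteins, and P4hb, the main PDI (-0.23 ± 0.10, adjusted p = 0.267). Calr (calreticulin), a lectin chaperone, differed by -0.02 ± 0.12. None of these passed the test.

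Of the 17 measured heat shock factors and cytosolic cochaperones, 0 passed in the limma fit, against 2.73% of all genes. In the same list 5 had an unadjusted p under 0.05, against 18.5% of all genes, and 1, Hspbap1, passed with the block, against 3.79%. The list had 6 positive and 11 negative members and a median of -0.04. The heat shock factors Hsf1 and Hsf2 pointed in opposite directions, each without overlap, as in 25.8% of all genes. Neither passed. Hsf1, the main activator of heat shock genes, had log2 levels of 12.19, 12.18 and 12.31 on the Foxp1 arrays and 12.56, 12.54 and 12.41 on the control arrays (-0.28 ± 0.09, adjusted p = 0.179). Hsf2 had levels of 9.83, 9.73 and 9.41 on the Foxp1 arrays and 9.22, 9.32 and 9.08 on the control arrays (0.45 ± 0.13, adjusted p = 0.129). Of 10 mitochondrial and prefoldin genes, 0 passed, against 2.73% of all genes, and 0 passed with the block, against 3.79%. Differences were positive in 9 of the 10, against 4350 of all 8789 genes. An unadjusted p under 0.05 in the limma fit occurred in 1, against 18.5% of all genes. That gene was Pfdn2 (0.29 ± 0.10, adjusted p = 0.171), a subunit of the prefoldin complex that hands clients to the CCT ring. Pfdn4 differed by 0.23 ± 0.11.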

How the data were processed

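Per the file headers, the authors deposited for each of 25697 probes a linear intensity and a detection p-value per array. GenomeStudio, without a version, appears in the submitters' processing notes. On each array 29.5% to 31.6% of deposited intensities were below 0. A second deposited table, the authors' processed values, was read as log2 and used as an alternative only, since no source states its scale and method. No genome build is named.

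Intensities were corrected with limma's neqc (version 3.58.1, R 4.3.3), with background inferred from the detection p-values and an offset of 16, then quantile-normalised and put on the log2 scale. That offset shrinks the differences of dim probes. The filter kept 12136 probes, those detected (p under 0.05) on 3 or more arrays. The 3 Foxp1 and 3 control arrays were compared with lmFit and eBayes, two-sided, and p-values were adjusted by Benjamini-Hochberg over all kept probes, with a threshold of 0.05. The fit was tested on simulated data with independent errors, so deviations shared by arrays were not covered. The number of arrays limits the precision of the fit. Alternatives changed the background correction, offset, scaling, filter, weights, block, source of values, probe choice and arrays. A gene was its brightest kept probe under the current symbol, which gave 8789 genes. For members only probes under a symbol of the name rule counted. Brighter kept probes of Pdia5 (listed as Pdir) and Dnajc2 (listed as Zrf2) were thereby left out.

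Arrays with the same replicate number deviated together from their group means (r = 0.257, 0.115 and 0.401 across kept probes), and the numbers were treated as pairs on that basis, since the labels do not explain them. The basis is weak for numbers 1 and 2, since Foxp1 array 2 correlated at 0.151 with control array 1, above its own 0.115, and Foxp1 array 1 at 0.121 with control array 2. Symbols were updated through RefSeq synonyms (GRCm38.p6), and families and compartments were assigned by hand. The members and lists were chosen with earlier results of these data known. Named genes are the 4 with the smallest p in each family, in the ER and in the cytosol, the 4 with the highest mean level in each family, and the 2 with the smallest p in each related list. Other genes named, and the search under older symbols, were chosen after their values were seen.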

Additional observations from a re-analysis of the deposited data

How the results depend on the processing

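The limits are 3 arrays per group, log2 differences that the offset shrinks for dim probes, and the pairing of arrays, which rests on the data. The list medians were not tested, and the cause of the shifts given here was not tested either. All genes past the threshold numbered 240, against 753 with array weights, 333 with the replicate block, 202 without both replicate 3 arrays, 175 with median scaling, 162 with no detection filter and 53 to 251 when 1 array was left out (60, 53 and 119 without Foxp1 arrays 1 to 3, and 92, 79 and 251 without control arrays 1 to 3).

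Chaperone genes past the threshold numbered 0 in either direction. Higher ones numbered 1 with array weights and 1 with the replicate block. Lower ones numbered 2 with array weights and 1 each with the replicate block, an offset of 50, detection on all 6 arrays and the mean over the probes of a gene. Leaving out 1 array gave 0 to 0 in both directions.

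The median log2 difference over all chaperone genes was 0.004, against 0.042 with array weights and -0.0041 to 0.079 when 1 array was left out. For HSP70 it was 0.043, against 0.131 without both replicate 3 arrays and -0.020 to 0.137 with 1 array left out. For HSP40 it was -0.021, against -0.043 with detection on all 6 arrays, -0.0049 with array weights, 0.0043 with the mean over probes, 0.0038 with current symbols and -0.024 to 0.024 with 1 array left out. For small HSPs it was -0.108, against 0.018 with no detection filter, -0.228 with array weights and -0.167 to 0.0017 with 1 array left out. For BAG it was 0.118, against 0.083 with array weights, 0.065 without both replicate 3 arrays, 0.011 with current symbols and 0.079 to 0.143 with 1 array left out. For cytosolic members it was 0.0009, against 0.033 with median scaling, 0.054 with array weights and 0.0078 to 0.054 with 1 array left out.

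With 1 array left out, the median ran from -0.0072 to 0.106 for ER members, 0.054 to 0.134 for CCT, -0.098 to 0.106 for PDI and -0.016 to 0.114 for the mitochondrial chaperonins, and the ER median minus the cytosol median (0.0039 with all arrays) ran from -0.027 to 0.052, with -0.054 under array weights and -0.038 under median scaling. Over 16 alternatives each, Hspa5 ran from 0.47 to 0.89, Hyou1 from 0.33 to 0.51, Dnajb9 from 0.31 to 0.56, Dnajc12 from -0.52 to -0.40 and Hspb6 from -0.52 to -0.33, with no change of sign. There were 512 alternatives over single genes, which were the 31 named members and Foxp1. Of these, 25 turned the sign of a difference that had not passed, 8 brought an adjusted p under the threshold and 0 lost a call. Only Foxp1 had a call to lose. The replicate block changed no other call on a gene tested here than those given for Hspa5, Dnajc12, Ppp1r15a and Hspbap1.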
